A study of Mus musculus with 15 samples.

Results

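The annexin genes, a family of calcium-regulated membrane-binding proteins, were followed in a mouse bile duct cell line after the loss of the transcription factor Klf5. The 10 members, Anxa1 to Anxa9 and Anxa11, were taken by gene symbol from the 24421 genes of each of the authors' deposited tables. The tables also hold Anxa10 and Anxa13, so 12 annexin genes have a row in all. The family was selected on its symbols with the log2 folds and adjusted p-values of both comparisons known, so these values are given as a description and support nothing beyond themselves.

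RNA came from an established line of C57BL/6 cholangiocytes, the epithelium of bile ducts, with the genotype ITR-CreERT2;Klf5flox/flox. CreERT2 is a recombinase that enters the nucleus when 4-OH Tamoxifen binds it and then cuts out the floxed part of Klf5, which encodes a Krüppel-like zinc finger factor. Ethanol, the solvent, served as control: 3 libraries were compared with 4 tamoxifen libraries at 12 h, and 4 with 4 at 24 h. Control and treated cells share the floxed alleles and the recombinase, so what tamoxifen, active Cre and the loss of Klf5 each did cannot be told apart, and the labels name a single line. Nothing in the labels says that replicates were separate cultures, and the p-values therefore reflect a spread that may be technical. The files analysed here hold the authors' comparisons and not single libraries, so a level cannot be given for a single library and overlap between groups cannot be stated.

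The mean library held 13.9 M normalised counts in genes at 12 h and 11.8 M at 24 h. The authors' size factors, as inferred from the lowest means of each time, lay between 0.934 and 1.07 over both times. Klf5 itself stood at 40.9% of the ethanol level at 12 h (95% interval 29.9% to 56.0%) and at 30.4% at 24 h (27.4% to 33.8%), computed from the folds in the authors' deposited table. Cholangiocyte markers summed to a mean of 139739 normalised counts at 12 h and 57275 at 24 h over 10 genes, in the authors' deposited table. Much of that sum was Krt18, at 48237 and 21895, and Krt8, at 37434 and 11173. Sctr was at 0 at both times, Cftr at 2.25 and 12.7 and Epcam at 15.7 and 9.56. Fibroblast and stellate markers summed to 29.6 and 11.3 and endothelial markers to 1.75 and 1.84 normalised counts, and immune markers to 80.2 and 77.1, nearly all of it Cd68, in the authors' deposited table. Hepatocyte markers summed to 9564 and 4862, with Hnf4a at 7584 and 4146, Apoa1 at 1291 and 448, Ttr at 685 and 267, Alb at 3.68 and 1.48 and Cyp7a1 at 0, in the authors' deposited table. Of the 10 cholangiocyte markers 9 had an adjusted p at each time. At each time 1 fell and 0 rose, against 0.943% of all genes called at 12 h and 12.4% at 24 h. Krt7 fell at 12 h and was not called at 24 h (Wald test, adjusted p = 0.250). Krt19 fell at 24 h and was not called at 12 h (Wald test, adjusted p = 0.730). The median log2 fold of the list was -0.06 at 12 h and 0.09 at 24 h. The part of such shifts in the annexin values was not tested. In bulk RNA, fewer cells of a type and less RNA per cell cannot be told apart.

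Annexins bind acidic phospholipids of membranes in the presence of calcium through a conserved core of repeated helical domains, while a variable N-terminal tail sets the partners of each member. They are known for linking membranes to the actin cortex, for vesicle traffic and exocytosis, and for sealing wounds of the plasma membrane. In bile ducts and other polarised epithelia several members lie under the apical or the lateral membrane.

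The promoters of members called at 24 h are shown because Klf5 binds GC-rich and CACCC-type letters. Whether Klf5 acts on these genes was not tested. The bases before the start site come from RefSeq on GRCm38.p6 and are printed 5′ to 3′ on the strand of the gene, and bases inside an annotated GENCODE transcript of the same gene were left out. Capitals mark every match of CCCCNCCC or CACCC on either strand, where a CACCC match on the opposite strand reads GGGTG, and a CACCC can lie inside a CCCCNCCC. Anxa8 (chr14:34085729-34085978, forward strand), Anxa2 (chr9:69453433-69453619, forward strand) and Anxa11 (chr14:25841905-25842154, forward strand) were lower at 24 h, and Anxa5 (chr3:36475895-36476137, reverse strand) was higher.
Anxa8: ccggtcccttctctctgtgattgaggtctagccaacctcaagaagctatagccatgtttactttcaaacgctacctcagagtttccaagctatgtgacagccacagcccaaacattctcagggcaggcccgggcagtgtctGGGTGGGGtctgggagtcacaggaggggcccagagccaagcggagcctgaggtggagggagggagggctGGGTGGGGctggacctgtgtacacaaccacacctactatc
Anxa2: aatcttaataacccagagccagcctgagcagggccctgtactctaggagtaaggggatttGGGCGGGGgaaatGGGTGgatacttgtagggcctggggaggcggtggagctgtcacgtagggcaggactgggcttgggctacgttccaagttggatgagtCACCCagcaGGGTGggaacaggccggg
Anxa11: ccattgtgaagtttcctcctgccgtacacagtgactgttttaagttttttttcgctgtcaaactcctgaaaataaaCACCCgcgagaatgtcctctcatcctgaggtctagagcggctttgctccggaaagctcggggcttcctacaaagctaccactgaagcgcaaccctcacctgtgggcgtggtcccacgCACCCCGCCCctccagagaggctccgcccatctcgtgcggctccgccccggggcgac
Anxa5: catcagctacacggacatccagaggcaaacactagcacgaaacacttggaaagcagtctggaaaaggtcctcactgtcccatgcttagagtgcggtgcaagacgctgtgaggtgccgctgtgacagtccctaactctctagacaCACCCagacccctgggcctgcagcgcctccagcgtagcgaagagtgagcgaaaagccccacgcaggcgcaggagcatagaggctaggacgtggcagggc

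Within the 250 bases before the RefSeq start, Anxa8 held 2 CCCCNCCC matches, at 109 to 102 and 40 to 33 bases before the start, both on the opposite strand and both with the letters GGGTGGGG on the strand of the gene. Anxa2 held 3 such matches, at 190 to 183, 61 to 54 and 9 to 2 bases before the start, and the latter 2 lie in the bases that are not printed. Anxa11 held 1, at 55 to 48 bases before the start, and Anxa5 held none and 1 CACCC match, at 106 to 102. Of the 10 members 8 had a promoter in the table (Anxa3 and Anxa6 did not), and 4 of the 8 held CCCCNCCC and 7 held CACCC in at least 1 of their windows. For comparison, 33.3% of all 27025 genes with a promoter there held CCCCNCCC and 54.5% of them held CACCC, so the letters are common, and 13.6% of all windows held CCCCNCCC at least 2 times. Members without a call at either time held such letters too: Anxa9 held CCCCNCCC, and Anxa4, Anxa7 and Anxa9 held CACCC. Anxa1, also without a call, held neither. For Anxa9 the CACCC matches lay only in a window at chr3:95315181-95315430, outside the gene position given for it below. A match is a description of letters and not a site of binding, and the files hold no binding data.

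Falls and rises both occurred in the family. With an adjusted p under 0.05 as the call, 2 members fell at 12 h, 0 rose and 8 were not called, against 0.943% of the 13044 genes with an adjusted p called in either direction in the authors' deposited table. Without adjustment 5 of the 10 members had a p under 0.05 at 12 h, against 4.9% of all genes with a p. At 24 h 4 members fell, 2 rose and 4 were not called, against 12.4% of 11648 genes called, 6.52% as lower and 5.9% as higher, in the authors' deposited table. The median log2 fold of the members was -0.29 at 12 h and -0.12 at 24 h, and over all genes with a p it was -0.01 and 0.01. Since the family was chosen with these comparisons in view, nothing is read from the counts against the background.

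**Figure D1:**
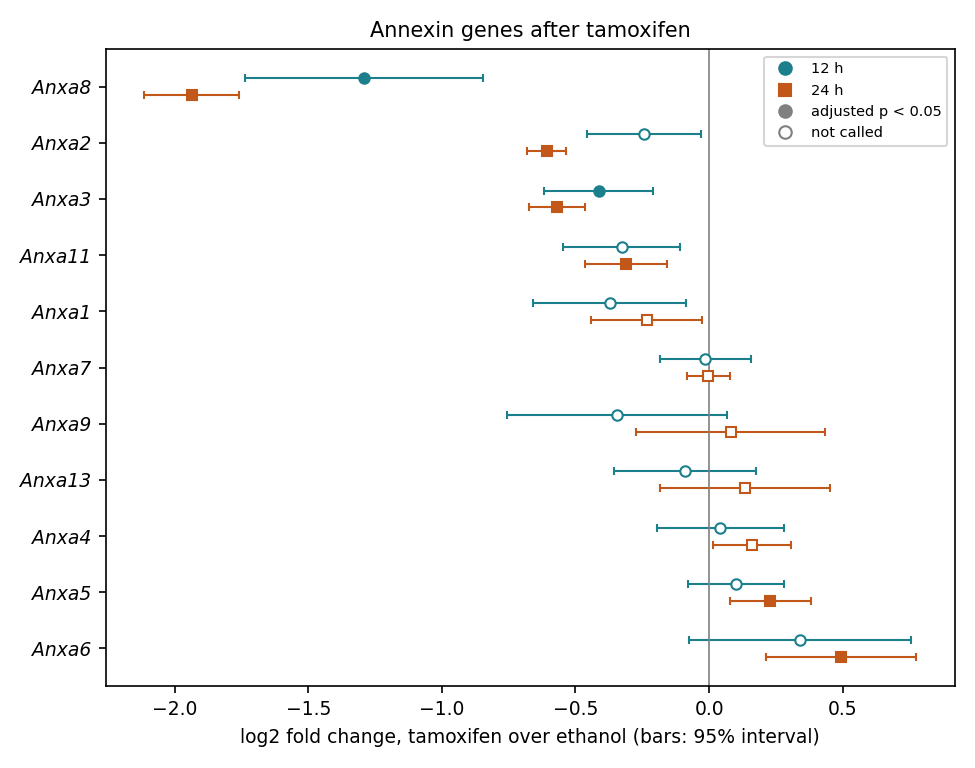
Log2 fold change of tamoxifen over ethanol for 11 annexin genes (rows, ordered by the 24 h value) at 12 h (circles) and 24 h (squares), with 95% intervals from the authors' standard errors and filled symbols for an adjusted p under 0.05. Anxa8 lies far to the left at both times, Anxa2, Anxa3 and Anxa11 lie below 0 at 24 h, and Anxa5 and Anxa6 lie above 0. Anxa10 is left out for its near-absent reads.

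Anxa8, a member known from stratified and ductal epithelia and from late endosomes, fell the most of the family. The gene is at chr14:34085981-34100571 of GRCm38, on the forward strand. Its mean and fold imply 4517 normalised counts with ethanol and 1845 with tamoxifen at 12 h, and 995 with ethanol and 260 with tamoxifen at 24 h. In the authors' deposited table (Wald test) the log2 fold of Anxa8 was -1.29 at 12 h (SE 0.23, adjusted p = 5.66e-06) and -1.94 at 24 h (SE 0.09, adjusted p = 1.64e-97). The tamoxifen level was thus 40.8% of ethanol at 12 h (95% interval 30.0% to 55.6%) and 26.2% at 24 h (23.1% to 29.6%). By p, Anxa8 ranked 29 at 12 h and 3 at 24 h among all genes of the authors' deposited table. Its SE at 12 h was 1.71 times the median of genes of similar mean, and 1.27 times at 24 h.

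Anxa2, which forms a complex with S100a10 under the plasma membrane and serves as a docking site for plasminogen activation, was the most abundant member in counts. The gene is at chr9:69453620-69491795, on the forward strand. Its levels come to 40656 normalised counts with ethanol and 34357 with tamoxifen at 12 h, and to 31291 and 20535 at 24 h, computed from mean and fold. In the authors' deposited table the 12 h log2 fold was -0.24 (SE 0.11, adjusted p = 0.644), so Anxa2 was not called there. At 24 h Anxa2 fell by 0.61 (SE 0.04) in the authors' deposited table, with an adjusted p of 4.99e-57 and rank 8 of all genes by p. The 24 h level was 65.6% of ethanol (62.4% to 69.0%), and the SE was 0.764 times that of genes of similar mean.

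Anxa3, known as an inhibitor of phospholipase A2, was called at both times. It is at chr5:96793339-96845966, on the forward strand. Implied levels were 21969 with ethanol and 16492 with tamoxifen at 12 h, and 18630 and 12567 at 24 h. Anxa3 fell by 0.41 at 12 h (SE 0.10, adjusted p = 0.0115) and fell by 0.57 at 24 h (SE 0.05, adjusted p = 9.34e-24) in the authors' deposited table. That is 75.1% of ethanol at 12 h (65.2% to 86.5%) and 67.5% at 24 h (62.7% to 72.5%).

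Anxa11 and Anxa7 carry long N-terminal tails rich in proline and glycine, and the difference between their folds was not tested. Anxa11, which tethers RNA granules to lysosomes, is at chr14:25842156-25886804, on the forward strand. Its implied levels were 1931 with ethanol and 1539 with tamoxifen at 12 h, and 930 and 749 at 24 h. The log2 fold of Anxa11 was -0.33 at 12 h (SE 0.11, adjusted p = 0.196) and it fell by 0.31 at 24 h (SE 0.08, adjusted p = 0.00132) in the authors' deposited table. Of the 50-letter words in Anxa11 transcripts 16.2% also occur in transcripts of other genes, mostly Gm2260 and Gm2274, so its counts are uncertain where reads were shared. The largest overlap with the exons of any single other gene was 4.53% of the exon bases of a member (Anxa9, with 6330562C20Rik). Anxa7, a calcium-dependent fusion factor of secretory membranes at chr14:20455260-20480133 on the reverse strand, had implied levels of 3526 and 3491 at 12 h and 2746 and 2741 at 24 h. Its log2 fold was -0.01 at 12 h (SE 0.09) and 0.00 at 24 h (SE 0.04) in the authors' deposited table, and at 24 h the 95% interval ran from 94.5% to 105.5% of ethanol.

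Anxa1, a mediator of glucocorticoid action that dampens inflammation, was lower in both tables without being called. The gene is at chr19:20373428-20390944, on the reverse strand. Implied levels were 2050 with ethanol and 1584 with tamoxifen at 12 h, and 615 and 523 at 24 h. Its log2 fold was -0.37 at 12 h (SE 0.15, unadjusted p = 0.0111, adjusted p = 0.422) and -0.23 at 24 h (SE 0.11, unadjusted p = 0.0271, adjusted p = 0.140) in the authors' deposited table. Anxa9, an atypical member, was the lowest of the 10 in counts, at chr3:95296096-95307176 on the reverse strand. Levels of Anxa9 came to 190 and 150.1 at 12 h and to 111 and 117 at 24 h, and it was not called in the authors' deposited table, where the log2 folds were -0.34 (SE 0.21) and 0.08 (SE 0.18).

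Anxa5, Anxa6 and Anxa4 were the members above 0 at 24 h beside Anxa9. Anxa5, whose protein coats exposed phosphatidylserine and blocks coagulation on it, is at chr3:36448923-36475894, on the reverse strand. Its implied levels were 10375 with ethanol and 11115 with tamoxifen at 12 h, and 5205 and 6104 at 24 h. In the authors' deposited table Anxa5 had a log2 fold of 0.10 at 12 h (SE 0.09, adjusted p = 0.999) and rose by 0.23 at 24 h (SE 0.08, adjusted p = 0.0296), to 117% of ethanol (106% to 130.3%).

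Anxa6, which carries a duplicated annexin core and acts in cholesterol traffic and membrane scaffolding, had the largest rise of the family from a low level. It is at chr11:54979108-55033445, on the reverse strand. Its levels came to 430 with ethanol and 544 with tamoxifen at 12 h, and to 175 and 246 at 24 h. The log2 fold of Anxa6 was 0.34 at 12 h (SE 0.21, adjusted p = 0.999), and it rose by 0.49 at 24 h (SE 0.14, adjusted p = 0.00776) in the authors' deposited table, to 141% of ethanol (116% to 171%). Anxa4, an abundant apical annexin of secretory epithelia, is at chr6:86736840-86793584, on the reverse strand. Implied levels of Anxa4 were 19173 and 19740 at 12 h and 8076 and 9026 at 24 h. Anxa4 was not called in the authors' deposited table, with log2 folds of 0.04 (SE 0.12) and 0.16 (SE 0.08). At 24 h its unadjusted p was 0.0330 and its adjusted p 0.159 (Wald test), with a 95% interval from 100.9% to 123.8% of ethanol.

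Anxa13, an annexin of gut and kidney epithelia that is held at membranes by a lipid anchor, is not among the 10 but was abundant. The GENCODE annotation used here lists Anxa13 as a processed transcript and not as protein coding. It gives Anxa13 1348 bases of exon, the length behind its level per kilobase below. The implied levels of Anxa13 are as follows. They were 8973 with ethanol and 8432 with tamoxifen at 12 h, and 3400 and 3731 at 24 h. In the authors' deposited table the log2 folds of Anxa13 were -0.09 (SE 0.14) and 0.13 (SE 0.16), not called. Its 24 h SE was 3.36 times that of genes of similar mean. Anxa10 had a mean of 0.288 at 12 h, under the 0.410 to 0.449 that 3 reads in all libraries give, and of 1.74 at 24 h in the authors' deposited table, so it has no adjusted p and no fold is given.

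**Figure D2:**
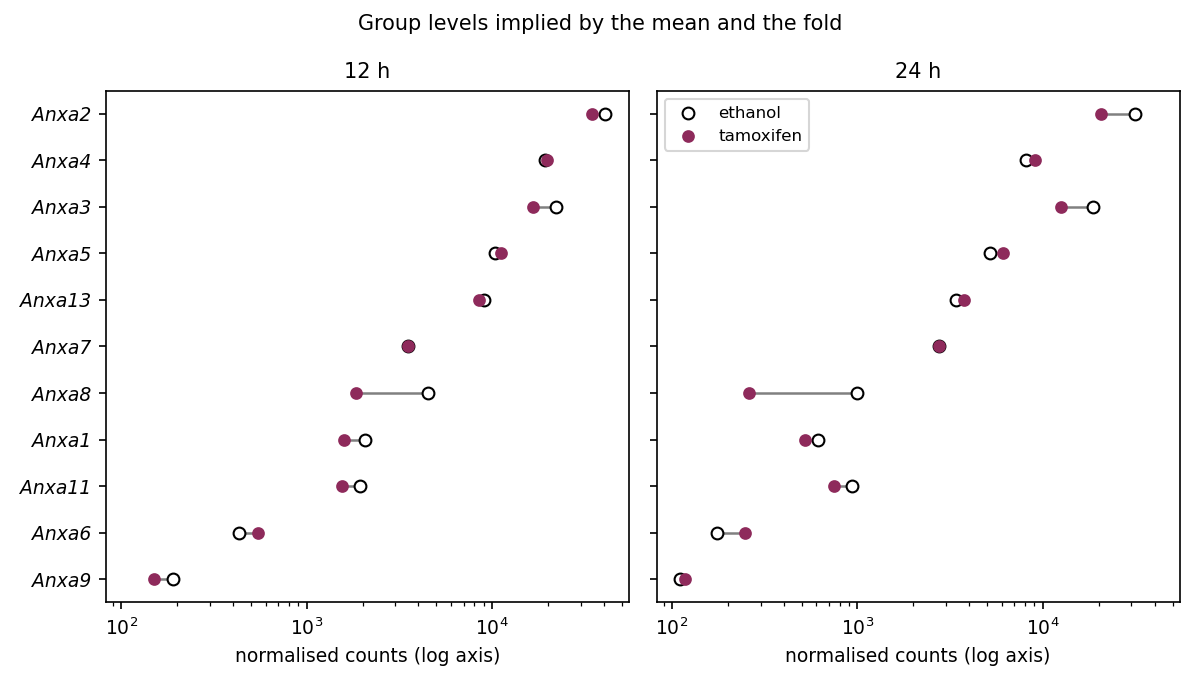
Normalised counts of 11 annexin genes (rows, ordered by their mean at 12 h) with ethanol (open) and tamoxifen (filled) on a log axis, as implied by the mean and fold in the authors' deposited table, at 12 h (left) and 24 h (right). The pair of points is widest apart for Anxa8 at both times, from 4517 to 1845 and from 995 to 260, and they coincide for Anxa7.

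Because longer transcripts give more reads, members were ranked on the mean over all libraries per kilobase of exon and per M normalised counts. Anxa2 was first at both times, with 715 at 12 h and 586 at 24 h on this scale, or 28.2% and 34.4% of the summed level per length of the 12 annexin genes. At 12 h it was followed on this scale by Anxa13 (463), Anxa5 (437), Anxa3 (372), Anxa4 (302) and Anxa8 (115). The remaining 5 members ranged from 44.1 for Anxa1 to 5.81 for Anxa9. At 24 h Anxa3 (362) was the next after Anxa2 on this scale, before Anxa5 (269), Anxa13 (223), Anxa4 (155) and Anxa7 (38.7), while Anxa8 stood at 28.2 and Anxa1 at 16.5. The files give no spread for a level, so neighbours in this order cannot be said to differ, and with the longest transcript as length Anxa3 came before Anxa13 and Anxa5 at 12 h too.

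**Figure D3:**
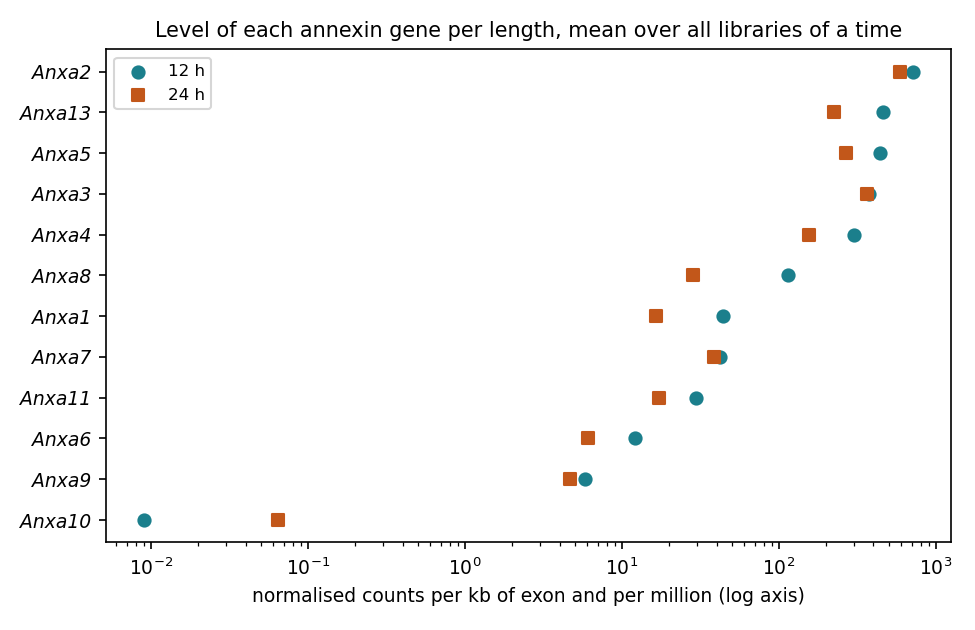
Mean level of each of 12 annexin genes (rows, ordered by the 12 h value) in normalised counts per kb of exon and per M, on a log axis, at 12 h (circles) and 24 h (squares). Anxa2 is the highest at both times, Anxa10 is near absent, and the 12 h and 24 h points are far apart for Anxa8 (115 and 28.2) and close for Anxa3 (372 and 362); the times were normalised separately and were not tested against each other.

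Summed over the 10 members, the implied counts were 104819 with ethanol and 90858 with tamoxifen at 12 h, and 68773 and 52869 at 24 h. The total of the 10 members with tamoxifen was thus 86.7% of ethanol at 12 h and 76.9% at 24 h. No interval was computed for these sums, and Anxa13, with means of 8664 and 3566, is not in them. The 24 h difference of 15905 counts is a net value. Anxa2 was lower by 10757 counts and Anxa3 by 6063, while Anxa4, Anxa5, Anxa6 and Anxa9 were higher. Without Anxa2 the remaining 9 members stood at 88.1% at 12 h and 86.3% at 24 h. The 10 members held 0.697% of all normalised counts at 12 h and 0.514% at 24 h, from tables that were normalised separately.

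The difference between the times was tested as the 24 h minus the 12 h log2 fold, and no member passed: 0 of 10 had an adjusted p under 0.05 in the Wald test of the difference, against 0.0134% of 14981 genes. Those 2 genes, Msln and Serpine2, were named after their values were seen. At an unadjusted p under 0.05 in the Wald test of the difference across all genes were 2 members and 1.64% of all genes. These were Anxa2, with a difference of -0.36 (SE 0.11), and Anxa8, with -0.64 (SE 0.24). In the Wald test of the difference the unadjusted p was 0.00145 for Anxa2 and 0.00846 for Anxa8, and the adjusted p was 0.9999 for both. The 1.64% of all genes is below the share that a p under 0.05 gives where no fold differs. The test was thus conservative over all genes, which include genes of very low mean. Whether this holds at the levels of the members was not tested. A member that did not pass is not shown to have equal folds. The 95% intervals ran from -0.59 to -0.14 for Anxa2 and from -1.12 to -0.16 for Anxa8. For Anxa3 the difference was -0.15 (-0.38 to 0.08) and for Anxa6 0.15 (-0.34 to 0.65), so neither larger nor equal folds at 24 h can be shown for them.

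The genes whose pair of folds lay nearest to that of Anxa8 were looked up among 9581 genes that had 50 or more normalised counts on average at each time and an adjusted p at 24 h, without predicted genes and pseudogenes, by the distance over the 2 log2 folds. Nearest was Klf5 itself, at a distance of 0.22, with folds of -1.29 and -1.72 against -1.29 and -1.94 for Anxa8 in the authors' deposited table. Next came Itgb6, an integrin beta chain that activates TGF-beta, at 0.31, the surface glycoprotein gene Msln at 0.35, the cornified envelope gene Sprr2h at 0.35 and Ms4a4b at 0.49. All 5 were called as lower at both times in the authors' deposited table, a direction that their choice by nearness to Anxa8 fixed. A pair of comparisons is a coarse measure of likeness.

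**Figure D4:**
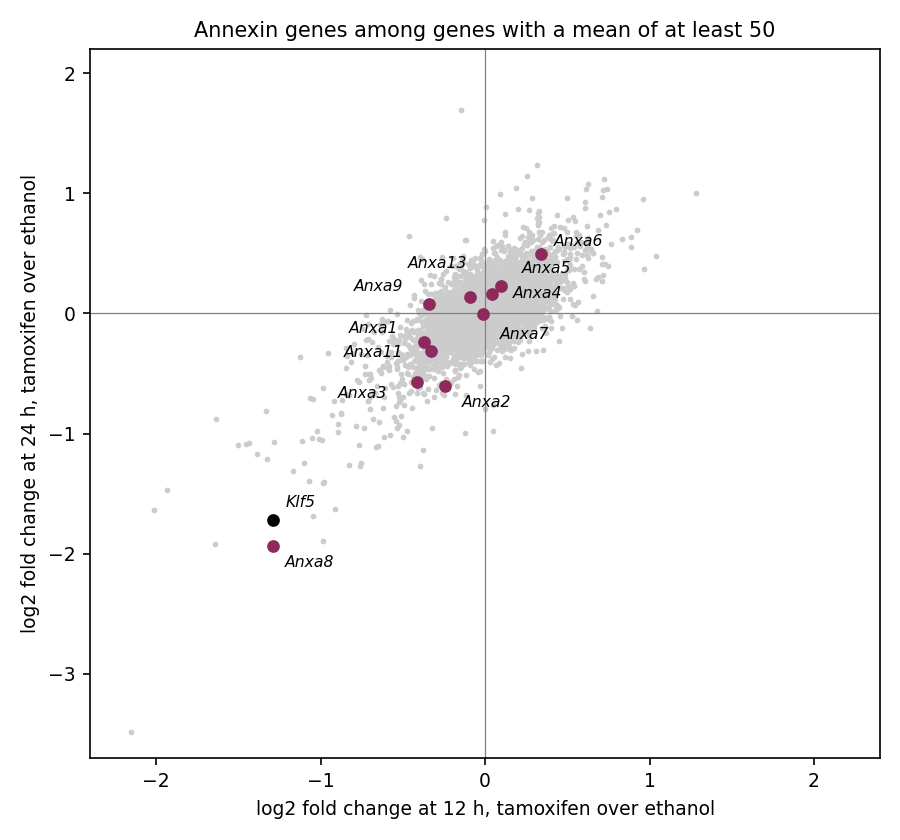
Log2 fold change of tamoxifen over ethanol at 12 h (horizontal) and 24 h (vertical) for 9861 genes that averaged 50 or more normalised counts at each time (grey), with 11 annexin genes (purple) and Klf5 (black). Anxa8 lies beside Klf5 at the lower left, Anxa2 and Anxa3 lie at the lower edge of the main cloud, and the other annexins lie inside it.

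Partners of the annexins were read from lists, beginning with the S100 proteins and scaffolds that bind annexin tails. Of 12 listed genes 11 had a row and 10 an adjusted p at each time. At 12 h 1 fell and none rose, against 0.728% of all genes called as lower, and at 24 h 4 fell and none rose, against 6.52%, in the authors' deposited table. The list's median log2 fold was -0.22 at 12 h and -0.12 at 24 h. S100a10, the partner that binds the Anxa2 tail, had a log2 fold of -0.45 at 12 h (SE 0.15, adjusted p = 0.178) and fell by 0.79 at 24 h (SE 0.06, adjusted p = 2.81e-34), to 57.9% of ethanol, in the authors' deposited table. Ahnak, a giant scaffold that the Anxa2 and S100a10 complex holds at the membrane, fell by 0.93 at 12 h (SE 0.17, adjusted p = 9.30e-06) and fell by 0.84 at 24 h (SE 0.05, adjusted p = 2.11e-70) in the authors' deposited table. S100a6, a calcium sensor that binds several annexins, fell by 0.73 at 24 h (SE 0.06), and S100a11, the partner of Anxa1, fell by 0.15 (SE 0.05, adjusted p = 0.0209), in the authors' deposited table.

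Plasminogen activation, which takes place on the Anxa2 complex, is covered here by 8 genes. Of these 5 had an adjusted p at each time, and 2 of them fell at 12 h, against 0.728% of all genes, and 2 at 24 h, against 6.52%, in the authors' deposited table. Plaur, the urokinase receptor, fell by 1.10 at 12 h (SE 0.24) and fell by 1.24 at 24 h (SE 0.08, adjusted p = 8.43e-48) in the authors' deposited table. Plat, tissue plasminogen activator, fell by 0.52 at 12 h (SE 0.10, adjusted p = 4.17e-05) and had a log2 fold of -0.18 at 24 h (SE 0.12, adjusted p = 0.399) in the authors' deposited table. S100a10 is in both lists and is the other fall at 24 h.

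**Figure D5:**
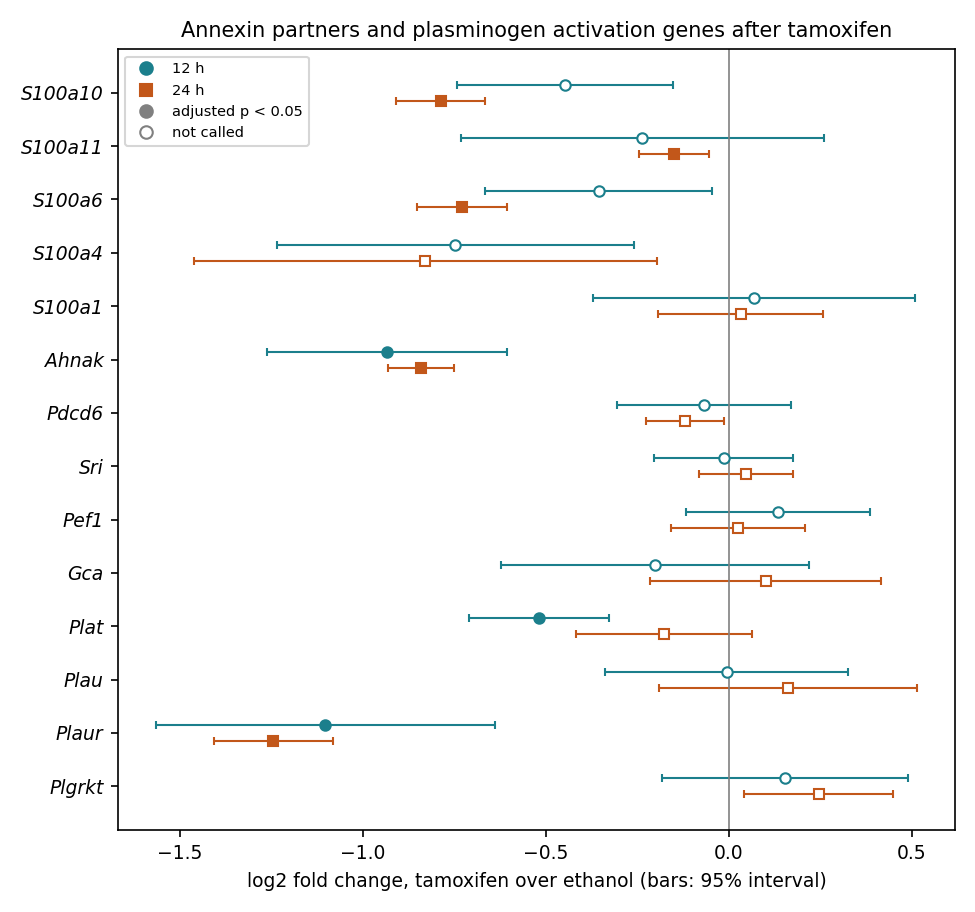
Log2 fold change of tamoxifen over ethanol at 12 h (circles) and 24 h (squares), with 95% intervals, for the 14 genes of the annexin-binding and plasminogen activation lists that have an adjusted p at both times; filled symbols have an adjusted p under 0.05. Ahnak and Plaur are called as lower at both times, S100a10, S100a6 and S100a11 are called as lower at 24 h, and Plat is called at 12 h.

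Other genes around annexin function were read from further lists, against 0.943% of all genes called at 12 h and 12.4% at 24 h, 6.52% as lower and 5.9% as higher, and 4.9% with an unadjusted p under 0.05 at 12 h. Of 21 plasma membrane repair genes none was called at 12 h, where 4 had an unadjusted p under 0.05, and 4 of 18 with an adjusted p fell at 24 h in the authors' deposited table. They were the calpain subunit gene Capns1 at -0.21 (SE 0.04), the caveolar genes Cav1 at -0.34 (SE 0.08) and Ptrf at -0.19 (SE 0.06), and the ESCRT gene Chmp4b at -0.15 (SE 0.05), in the authors' deposited table. Other calcium and phospholipid binding proteins counted 0 calls of 16 at 12 h, with 2 at an unadjusted p under 0.05, and 2 falls and 2 rises of 13 at 24 h in the authors' deposited table. At 0.943% of all genes called, a count of 0 among so few genes at 12 h says nothing about the members of these lists. Sytl2, a Rab27 effector of exocytosis, was at -0.66 (SE 0.12) and the copine gene Cpne2 at -0.17 (SE 0.06, adjusted p = 0.0486), against 1.51 (SE 0.28) for Mctp1 and 0.22 (SE 0.06) for the kinase gene Prkca, in the authors' deposited table at 24 h.

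Genes that expose or bind phosphatidylserine, the lipid that Anxa5 covers, counted 0 calls of 14 at 12 h, with 2 at an unadjusted p under 0.05, and 2 of 14 at 24 h, near the 12.4% of all genes, so neither count is a result about these genes. At 24 h 1 fell, the flippase gene Atp11a at -0.20 (SE 0.06), and 1 rose, the scramblase family gene Plscr2 at 0.27 (SE 0.09), in the authors' deposited table. Median log2 folds at 24 h were -0.10 for the repair list, -0.05 for the other calcium and phospholipid binders and 0.13 for this list. The formyl peptide receptor genes, receptors of Anxa1, were listed at 0 except Fpr2, with means of 0.137 and 0.253, under what 3 reads give, and the phospholipase gene Pla2g4a was not called at either time in the authors' deposited table.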

How the data were processed

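The titles of 15 RNA-seq samples gave the group (Control, here ethanol, or Tam, here 4-OH Tamoxifen) and the time of each. No title among them names a replicate 2 of the 12 h ethanol group. HISAT2, DESeq2 and mm10 are named in the submitters' processing notes without versions, roles or order, while how reads were counted, on which annotation and with which design is not given in the sources used here. Per the file headers, the authors' deposited tables (1 per time, normalised separately) hold the mean normalised count as a signal, the log2 fold change with its SE, the Wald score and p-values before and after adjustment.

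The score equals the log2 fold over its SE to within 1.10e-13. The direction was checked at 12 h: genes with 1 read gave 7 lowest means, 3 with negative and 4 with positive folds, as 3 ethanol and 4 tamoxifen libraries require. At 24 h the split is 4 and 4 and checks nothing, so the 12 h direction was assumed there. Library totals vary with the size factors, and intervals cover only what the SE holds.

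Genes were called at the authors' adjusted p under 0.05 (Wald test of DESeq2, Benjamini-Hochberg). The ethanol level was computed as the mean times the number of libraries, divided by the ethanol number plus the tamoxifen number times the linear fold; it assumes a fit with the 2 groups alone. The 95% intervals use 1.96 SE. The difference between times was divided by the root of the summed squared SEs and adjusted over all genes with a p at both times. The step was run on data simulated from these same SEs. That checks the computation and not whether the SEs hold for the real data. Exon lengths and gene positions were taken from GENCODE (GRCm38, the same assembly as mm10). Protein sequences were not used here. Named genes are the annexins, Klf5, called genes of the lists (up to 4 per list and time), S100a10, Ahnak, S100a11, Plat, and the 5 nearest to the annexin with the largest fold. The members and lists were chosen with earlier results of these data known; 1 gene in each of 2 lists is not reported here, and the counts and sums of those lists leave it out. Alternatives were other adjustments, a threshold of 0.01, centred folds, other lengths and single-strand motifs. Computation used Python 3.11.15, statsmodels 0.14.6, scipy 1.17.1, pandas 2.3.3, numpy 2.4.6 and matplotlib 3.10.9.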

Additional observations from a re-analysis of the deposited data

How the results depend on the processing

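The counts of called members were 2 at 12 h and 6 at 24 h with the p adjusted over all genes with a p, over genes with a mean of at least 10, and with folds centred on genes with a mean of at least 100, with the same genes called as in the deposited tables. At an adjusted p under 0.01 the count was 1 at 12 h, without Anxa3, and 5 at 24 h, without Anxa5. Of 88 annexin folds and calls under an alternative, 85 kept direction and side of the threshold, 2 lost the call (Anxa3 and Anxa5, as above) and 1 turned: Anxa7 at 24 h, with a log2 fold of 0.00 and an adjusted p of 0.965 after centring. No member passed the test of the difference between times under any of its alternatives. Klf5 kept its call at both times under all of its alternatives. With the longest transcript as length the share of Anxa2 was 30.3% at 12 h and 34.7% at 24 h, and with no division by length it was 35.1% and 40.2%. On the strand of the gene only, 2 members held CCCCNCCC in place of 4, and 6 held CACCC in place of 7. Among the partner genes, Cpne2 was not called with the p adjusted over all genes (adjusted p = 0.0658) or after centring (0.0637). At an adjusted p under 0.01 the calls of S100a11 (0.0209), Ptrf (0.0171), Chmp4b (0.0295), Cpne2 (0.0486), Atp11a (0.0150) and Plscr2 (0.0202) at 24 h were lost, as was that of Ms4a4b at 12 h (0.0233).

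No paired analysis was possible because the files hold no value per library, and leaving out replicates was not run for the same reason. The SEs of all 10 members were larger at 12 h than at 24 h, and the Anxa11 fold of -0.33 at 12 h was not called while that of -0.31 at 24 h was.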
